A study of Mus musculus with 4 samples.

Results

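The gasdermins are a small family of proteins that open pores in cell membranes. The 9 mouse genes of the A, C, D and E branches were taken by gene name from a table of 56493 genes, here in epidermis with and without the calcium sensors STIM1 and STIM2. The family was chosen by the measured change of 1 of its genes, Gsdmc, in this same comparison, so the values of the 9 genes are given as a description. The cKO group carries floxed Stim1 and Stim2 alleles deleted by K14-Cre, a Cre recombinase driven by a keratin promoter that is active in basal epithelial cells, and so also in hair follicles. The control group (F/F) carries the floxed alleles of both genes. Each group holds 2 libraries of RNA from dorsal epidermis that was lifted from the dermis with sodium thiocyanate. The labels give no age or sex, do not say whether controls carry Cre, and do not say that the 2 libraries of a group came from separate animals. The p-values below therefore measure the spread between libraries, which may be technical.

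Gasdermins are made as resting proteins in which the tail covers the pore-forming head. A protease cuts the linker between them, the heads gather in the inner face of the plasma membrane, and the pore lets cytokines out and ions, calcium among them, in. Large numbers of pores end in a lytic death called pyroptosis. In mouse skin gasdermin A is a product of the upper epidermis and hair follicle. Gasdermin D is the main target of the inflammatory caspases, and gasdermin C is a target of caspase-8. In mice the A and C genes exist as several neighbouring copies.

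The 9 genes lie at 4 places (GRCm39, the build named in the submitters' processing notes, with positions from the deposited table). Gsdma3 (98517186 to 98529052), Gsdma2 (98537585 to 98548790) and Gsdma (98555177 to 98568534) follow each other on the plus strand of chromosome 11. Gsdmc (63647817 to 63680608), Gsdmc2 (63696195 to 63717026), Gsdmc3 (63729573 to 63750407) and Gsdmc4 (63763113 to 63784146) do so on the minus strand of chromosome 15. Gsdmd stands alone on the same chromosome (75734176 to 75739257, plus strand), and Gsdme on chromosome 6 (50165868 to 50240842, minus strand). No exon base of any of the 9 genes is shared with another listed gene.

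How alike the copies are decides how far their counts can be told apart, so the last 60 coding bases of Gsdma and of Gsdmc are shown with the matching stretch of their copies. Sequences are 5′ to 3′ on the coding strand, from GENCODE M21 transcripts (GRCm38). Capitals mark bases that differ from the first gene of each cluster, compared position by position without gaps. The stretch ends with the stop codon of Gsdma, Gsdma2 and Gsdmc, while the open reading frames of Gsdma3 and of the 3 Gsdmc copies run past it.
Gsdma: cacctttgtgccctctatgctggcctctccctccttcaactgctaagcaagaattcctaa
Gsdma2: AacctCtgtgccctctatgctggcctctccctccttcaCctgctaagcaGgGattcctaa
Gsdma3: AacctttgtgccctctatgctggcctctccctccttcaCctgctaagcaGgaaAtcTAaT
Gsdmc: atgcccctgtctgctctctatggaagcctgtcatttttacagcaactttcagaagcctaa
Gsdmc2: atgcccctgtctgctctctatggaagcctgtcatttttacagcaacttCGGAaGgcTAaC
Gsdmc3: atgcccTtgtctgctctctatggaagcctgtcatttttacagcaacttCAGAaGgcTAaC
Gsdmc4: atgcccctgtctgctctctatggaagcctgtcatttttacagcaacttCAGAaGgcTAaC
Gsdma2 differs from Gsdma at 5 of the 60 bases and Gsdma3 at 7. In the C cluster Gsdmc2 and Gsdmc4 differ from Gsdmc at 8 and Gsdmc3 at 9, nearly all of them behind the same point near the end. There Gsdmc has an additional t, which shifts all later bases. Gsdma3 lacks a c near its end, with the same effect. Without gaps, these counts of differing bases therefore overstate how far the copies diverge.

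Over whole coding sequences, Gsdmc was 87.0% to 87.5% identical to its 3 copies. The copies were closer to each other, with 97.1% between Gsdmc2 and Gsdmc3 and 93.8% between each of these and Gsdmc4. Gsdma was 91.0% identical to Gsdma2 and 89.9% to Gsdma3. The libraries count the 3′ ends of transcripts, so the last 500 bases matter more. Set against all transcripts there (50 or more bases, 95% or more identical), Gsdmc matched 1 other gene, Gsdmc2 (96.4% over 252 bases), and Gsdma matched 0. How reads that align to several genes were handled is not stated, so values of single C genes are uncertain and the sum over the cluster is given beside them.

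The 4 libraries were shallow, with 118858 to 322426 counts in all. A gene at 0 can hide up to 3 counts, or 12.1 and 33.7 CPM in cKO replicates 1 and 2 and 16.01 and 9.58 CPM in the control pair. CPM here are counts scaled to a common library size by TMM, edgeR's trimmed mean method. Intervals and limits cover counting error only. Where counts are given as a pair against a pair, the first pair is cKO replicates 1 and 2 and the other is control replicates 1 and 2. Of the deleted genes, Stim1 had 23 and 6 counts against 24 and 62 in control, and Stim2 had 0 and 1 against 3 and 18. Stim1 was at 93.0 and 67.4 CPM in cKO, under the 128.1 and 198.0 CPM of control. Its log2 fold change, -0.98 (SE 0.52), missed the threshold (edgeR adjusted p 0.671), and Stim2 was too low to test. The labels do not say which exons were deleted, and 3′ counts from outside them check nothing. Epidermal markers were plentiful, with 5576 to 10412 CPM for 8 basal keratinocyte genes together and 8420 to 24455 CPM for 13 suprabasal and granular genes. Of the other cell types listed, 5 of 6 endothelial and pericyte genes and 7 of 10 neutrophil genes were at 0 in every library. Langerhans cell and macrophage genes summed to 1047 and 3192 CPM in cKO and 3831 and 2143 CPM in control. Sebocyte genes were at 869 and 2394 against 1110 and 872 CPM, and T cell genes at 360 and 427 against 640 and 575 CPM. For fibroblast genes the sums were 36.4 and 607 against 176 and 102 CPM, and for melanocyte genes 137 and 438 against 331 and 99.0 CPM. Skeletal muscle genes were at 44.5 and 135 CPM in cKO and at 1478 and 1047 CPM in control, with 4 of 7 tested called lower, beside 0.189% of all tested genes.

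The family as a whole was rare, and nearly all of its counts came from Gsdma and Gsdmc. The 9 genes had 181 counts over the 4 libraries, 161 of them from these 2. Gasdermins took 0.0347% of all counts in cKO replicate 1 (95% Wilson interval 0.0285% to 0.0423%) and 0.0311% in cKO replicate 2 (0.0226% to 0.0429%). The control libraries gave 0.00949% (replicate 1, 0.00607% to 0.0148%) and 0.00837% (replicate 2, 0.00576% to 0.0122%). These shares include the Gsdmc counts for which the family was chosen, so their order is a description.

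**Figure D1:**
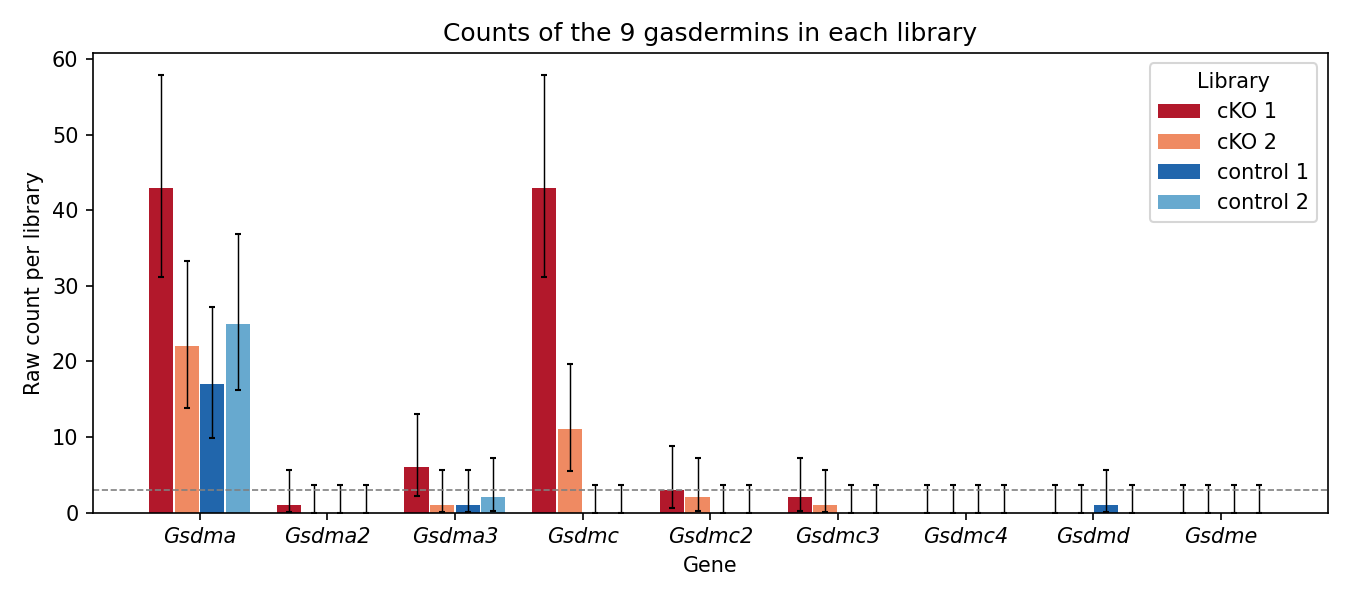
Raw count (vertical axis) of each of the 9 gasdermins (horizontal axis) in the 4 libraries, with exact 95% Poisson intervals; the dashed line marks 3 counts. Gsdma was counted in all 4 libraries and Gsdmc only in those of cKO, with 43 and 11 counts; the libraries differ in depth.

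Gsdma, the A-branch gene of upper epidermis, was the gasdermin of the control skin. It had 17 counts in control replicate 1 and 25 in control replicate 2, or 90.7 and 79.8 CPM (mean 85.3 ± 7.69, SD, n = 2). Of 15316 genes with a count in control, 85.1% had a lower mean CPM. In cKO it had 43 and 22 counts, or 173.9 and 247.2 CPM (mean 210.6 ± 51.9, SD, n = 2). Both cKO values lay above both control values, an order that 18.9% of the 4243 tested genes showed, against 19.6% with the opposite order. On the log2 scale the difference was 1.27 (SE 0.48), short of the threshold of 0.05 (edgeR quasi-likelihood test, adjusted p 0.454, and 0.0204 before adjustment). The direction was the same under every alternative tried, with log2 fold changes from 1.01 to 1.49 and adjusted p from 0.171 to 1.00.

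Gsdma3 and Gsdma2 are copies of Gsdma. Mutations of Gsdma3 are known for hair loss in mice. Gsdma3 had 6 and 1 counts against 1 and 2. The ratio of pooled counts per scaled library was 3.47, with an exact 95% interval from 0.793 to 20.8 that includes no difference. Gsdma2 had 1 count in cKO replicate 1 and 0 elsewhere, too low to size. With the 3 genes summed, the A cluster stood at 202.1 and 258.9 CPM in cKO and at 95.97 and 86.2 CPM in control. The sum differed by 1.32 on the log2 scale (SE 0.47), also short of the threshold (edgeR quasi-likelihood test, adjusted p 0.376).

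Gsdmc was counted in both cKO libraries and in neither control library. It had 43 counts in cKO replicate 1 (exact 95% Poisson interval 31.1 to 57.9) and 11 in cKO replicate 2 (5.49 to 19.7), against 0 and 0. In CPM these were 173.9 and 123.6 (mean 148.7 ± 35.5, SD, n = 2). Set against 3 counts in each control library, the cKO mean was 11.6-fold higher, and from 9.29 to 15.5 when 1 library was left out. This ratio takes the cKO counts without their own counting error, so it is no strict lower bound. Gsdmc was 1 of the 28 genes called higher, 0.66% of those tested with edgeR (no gasdermin was called lower), and that call is the reason the family was looked at, so it is no independent evidence. The call was not made by limma-voom (adjusted p 0.225). Without cKO replicate 1 the gene fell under the count filter and was not tested, so the call was not checked without that library.

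Gsdmc2, Gsdmc3 and Gsdmc4 are best known from the intestinal epithelium. Gsdmc2 had 3 and 2 counts in cKO and Gsdmc3 had 2 and 1, with 0 in control for both genes. These values are at or under 3 counts in every library and give no fold. Gsdmc4 had 0 counts in all 4. The C cluster summed to 48 and 14 counts in cKO, or 194.0 and 157.6 CPM, against 0 and 0. Set against 3 counts in each control library, the cKO mean was 13.7-fold higher, again without the counting error of cKO. Of the 48 and 14 counts, Gsdmc itself held 43 and 11.

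**Figure D2:**
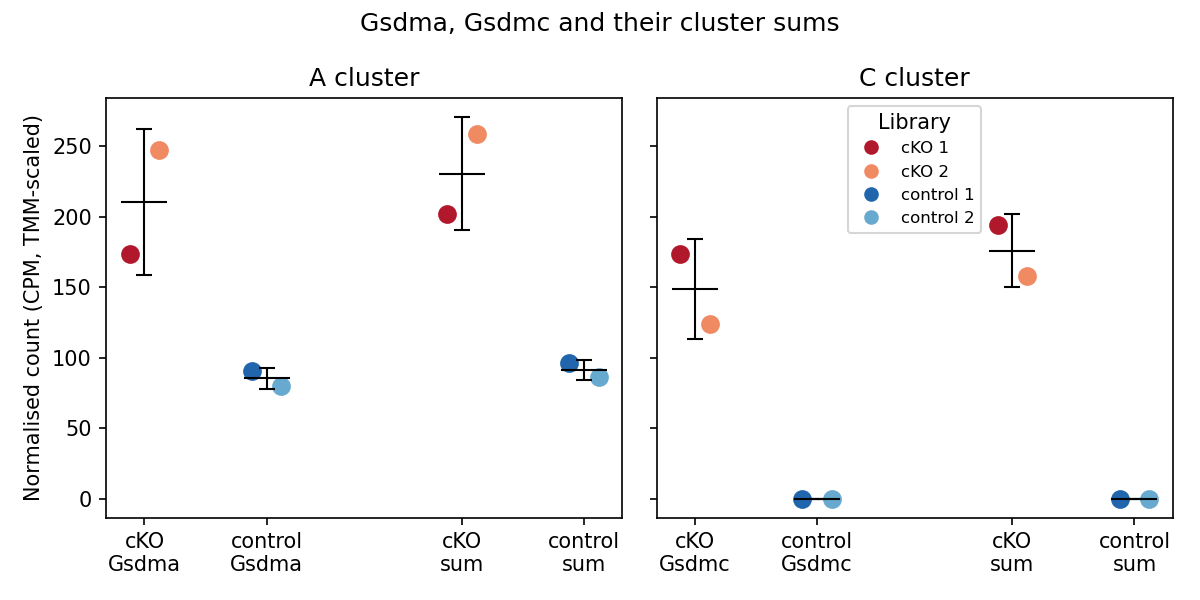
Normalised count in CPM (vertical axis) of Gsdma, Gsdmc and the sums of their clusters in cKO and control; points are libraries, and the line and bars are the mean and SD of 2. In both panels the cKO points lie above the control points, and the control points of the C cluster are at 0.

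Gsdmd, the gasdermin of the inflammatory caspases, had 1 count, from control replicate 1, and 0 elsewhere. Gsdme, the gene of the E branch, had 0 in all 4. Neither gene can be sized at this depth. In all, 6 of the 9 genes were at or under 3 counts in every library (Gsdma2, Gsdmc2, Gsdmc3, Gsdmc4, Gsdmd and Gsdme), Gsdma3 was above that in 1 library, and only Gsdma and Gsdmc passed the count filter.

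The make-up of the gasdermin counts differed between the groups, a comparison within each library that does not depend on scaling. Gsdma made up 89.5% of 19 gasdermin counts in control replicate 1 (95% Wilson interval 68.6% to 97.1%) and 92.6% of 27 in control replicate 2 (76.6% to 97.9%). In cKO it made up 43.9% of 98 (34.5% to 53.7%) and 59.5% of 37 (43.5% to 73.7%). Gsdmc took 43.9% in cKO replicate 1 (34.5% to 53.7%) and 29.7% in cKO replicate 2 (17.5% to 45.8%). In control Gsdmc held 0 of 19 and 0 of 27 counts, with upper Wilson ends of 16.8% and 12.5%. The lower end of cKO replicate 2, 17.5%, lies close to the first of these. These shares rest on the same counts that drew attention to Gsdmc and are not a further test.

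**Figure D3:**
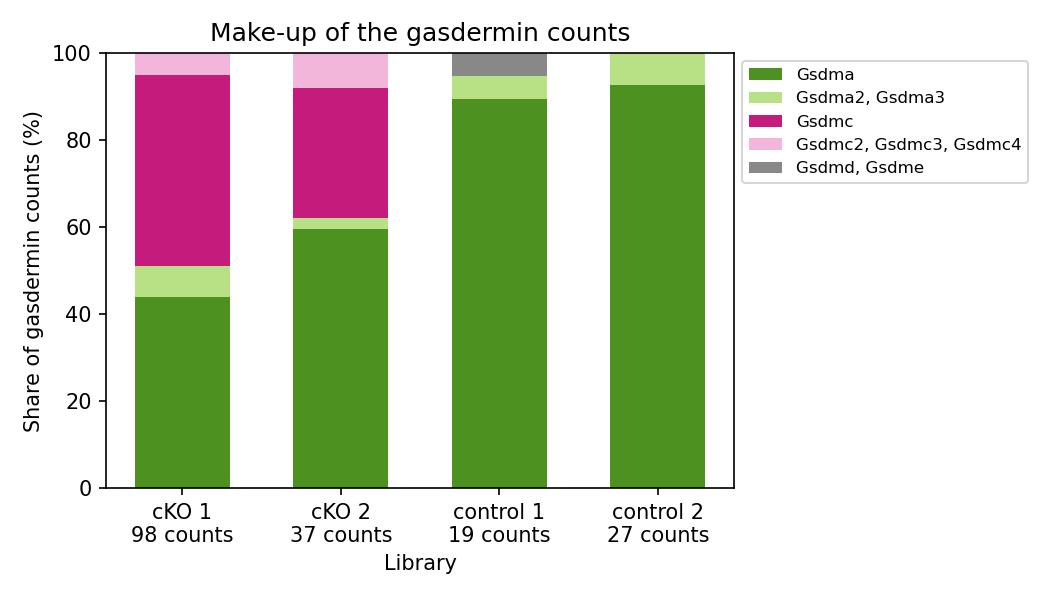
Share of the gasdermin counts (vertical axis, percent) taken by each gene or group of genes in the 4 libraries (horizontal axis, with the number of gasdermin counts). Gsdma fills 89.5% and 92.6% of the control bars, and Gsdmc 43.9% and 29.7% of the cKO bars.

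Levels of different gasdermins were compared as CPM per kb of the listed exon length, although 3′ counts need not scale with length. In control, Gsdma was at 31.3 ± 2.82 CPM per kb (SD, n = 2), Gsdma3 at 3.63 ± 0.460 from 3 counts, and Gsdmd at 1.12 ± 1.59 from 1 count. In cKO, Gsdma was at 77.2 ± 19.03 and Gsdmc at 61.8 ± 14.8 CPM per kb. The means differ by less than the SD of Gsdma and slightly more than that of Gsdmc. Their order was not the same in the 2 libraries. In cKO replicate 1 Gsdmc was at 72.3 and Gsdma at 63.8 CPM per kb, and in cKO replicate 2 they were at 51.4 and 90.7. Gsdma3 (10.997 ± 5.71), Gsdmc2 (7.47 ± 3.16) and Gsdmc3 (4.15 ± 0.957) followed, each overlapping the next within 1 SD, ahead of Gsdma2 with its 1 count (0.656 ± 0.927).

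**Figure D4:**
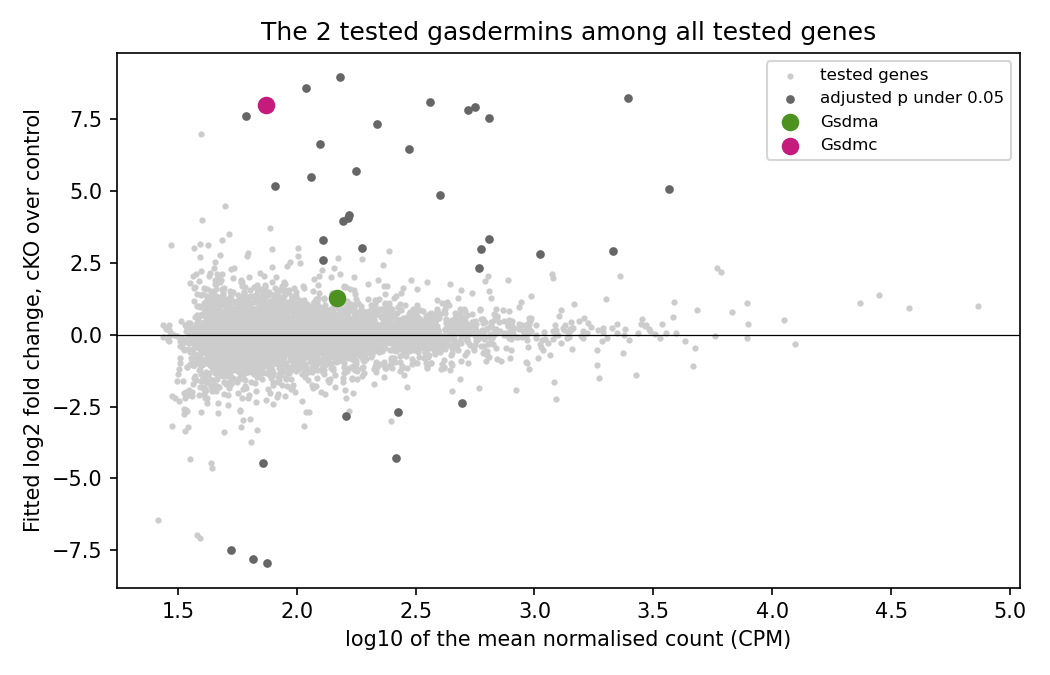
Fitted log2 fold change, cKO over control (vertical axis), against the log10 of the mean CPM (horizontal axis) for 4243 tested genes, with called genes in dark grey. Gsdma sits at 1.27 inside the cloud of genes that were not called, and Gsdmc among the called genes; the fitted value of Gsdmc depends on a prior count and is no measured fold.

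The genes with the profile most like Gsdmc over the 4 libraries were Casp14, Lce1g and Stfa1, by the root mean square difference of centred log2 CPM (0.30, 0.35 and 0.40). Casp14 encodes a caspase that acts in filaggrin breakdown rather than in cell death. Its counts were 48 and 11 in cKO and 0 and 2 in control. Lce1g, a cornified envelope gene, had 100 and 19 against 4 and 5. Stfa1, which encodes a cysteine protease inhibitor, had 81 and 33 against 2 and 1. The closest to Gsdma were Ik, Calr and 9330162012Rik (0.02, 0.06 and 0.06), none of which passed the threshold. Calr, which encodes a calcium-binding chaperone of the endoplasmic reticulum, had 79 and 36 counts against 30 and 43. The log2 values carry a prior count of 2, which alone sets the level of Gsdmc in the control libraries, so its distances and their order depend on that choice. With only 4 libraries the likeness is a description of these profiles.

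The suprabasal and granular genes, the cells in which gasdermin A is normally made, did not move as 1 block beside Gsdmc. Of 12 tested, 3 were called higher and 0 lower, beside 0.66% and 0.189% of all tested genes. These were Casp14, Flg, the filaggrin gene (2218 and 479 counts against 20 and 98), and Hrnr, the hornerin gene (403 and 43 against 16 and 56). Of all 13, 5 had both cKO values above both control values in CPM and 4 had them below. Over the 4243 tested genes these orders held for 18.9% and 19.6%. The 4 were Tgm3, a transglutaminase gene (log2 difference -2.15), Dsg1a, a desmosome gene (-1.51), Ivl, the involucrin gene (-1.20), and Krt2, too low to test. The first 3 did not pass the threshold (edgeR adjusted p 0.368, 0.184 and 0.359). Their summed level was 24455 and 15048 CPM in cKO and 8420 and 17928 CPM in control, so the groups overlapped. In bulk RNA more cells of a type and more RNA per cell cannot be told apart. The neutrophil list summed to 44.5 and 101.1 CPM in cKO and 16.01 and 12.8 CPM in control, with its defining genes Ly6g, Mpo and Csf3r at 0 in every library. Hair follicle genes stood at 2798 and 3304 CPM in cKO and 5283 and 6364 CPM in control. Of 5 tested, edgeR called 0, beside 0.848% of all tested genes. Of the 15 listed, 4 had both cKO values below both control values and 2 above. Krt17 held much of the sum (1314 and 1652 against 3314 and 4436 CPM). Krt79 went the other way (902 and 1056 against 272 and 255 CPM). The part of these cell types in the gasdermin values was not tested.

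The proteases that cut gasdermins were near or under the limit of these libraries. None of the listed genes could be tested. Casp1, the caspase of the inflammasome, had 6 counts in cKO replicate 1 and 0 elsewhere. Casp4, which senses bacterial lipopolysaccharide inside the cell, had 3 and 3 counts against 0 and 0, a level that gives no fold. Casp8, an initiator caspase of death receptors, had 1 and 0 counts against 0 and 2. The granule proteases Elane, Ctsg, Gzma and Gzmb were at 0 in every library.

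Among 18 inflammasome and death-complex genes, 3 were tested with edgeR and 0 were called (0 at an unadjusted p under 0.05, 0 with DESeq2 and 0 with limma-voom). Over all genes edgeR called 0.848%. Their median log2 fold change was 0.34, against 0.01 for all tested genes. Pycard, the adaptor that joins sensors to caspase-1, had 70 and 13 counts against 29 and 61. Its groups overlapped in CPM, and its log2 difference was 0.34 (SE 0.47). Nlrp10, a sensor made by keratinocytes, had 39 and 12 counts against 8 and 27, with a log2 fold change of 1.15 (edgeR adjusted p 0.625). Nek7, which binds the sensor NLRP3, had 37 and 15 against 50 and 61, with -0.54 (edgeR adjusted p 0.880). Nlrp3 itself had 2 counts in control replicate 2 and 0 elsewhere.

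Of 13 genes for pore assembly, membrane rupture and released cytokines, 5 were tested and 0 called with edgeR, beside 0.848% of all tested genes. Of the 5, 1 had an unadjusted edgeR p under 0.05, and 0 were called with DESeq2 or limma-voom. The median log2 fold change was 1.31. Il18, a cytokine that leaves cells through gasdermin pores, had 155 and 20 counts against 10 and 69, a log2 difference of 1.63 (SE 0.62, edgeR adjusted p 0.457). In CPM these were 626.7 and 224.8 in cKO and 53.4 and 220.3 in control, a wide spread inside each group, with the lower cKO value close to the higher control value. It passed the threshold without cKO replicate 2 (log2 fold change 2.15, edgeR adjusted p 0.00500) and without control replicate 2 (3.04, adjusted p 0.0177). Without cKO replicate 1 it was 0.61 (edgeR adjusted p 0.753) and without control replicate 1 it was 0.99 (adjusted p 0.998). Ninj1, whose product tears the membrane after pores have formed, had 12 and 8 counts against 5 and 8, with 1.31 (edgeR adjusted p 0.764). Zdhhc9, a palmitoyl transferase, had 18 and 5 against 7 and 5, with 1.35 (edgeR adjusted p 0.747). Il1rn, the interleukin-1 receptor antagonist, had 14 and 1 against 3 and 26, with -0.40 and overlapping groups. Il1b had 4 and 1 counts in cKO and 0 in control, and Il1a had 0 in all libraries.

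Membrane patches with gasdermin pores can be shed by the ESCRT machinery, which calcium entering through the pore calls to the membrane. Of 17 such genes 13 were tested, and 0 were called with edgeR, beside 0.848% of all tested genes. Of the 13, 0 had an unadjusted edgeR p under 0.05, and 0 were called with DESeq2 or limma-voom. The median log2 fold change was -0.20, with 5 of 13 above 0. The largest values were Ist1 (-0.88), Pdcd6ip (-0.75), Chmp3 (0.69) and Vps4b (-0.55), each within 2 standard errors of 0. The summed level of the list was 2374 and 2405 CPM in cKO and 2487 and 2615 CPM in control.

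**Figure D5:**
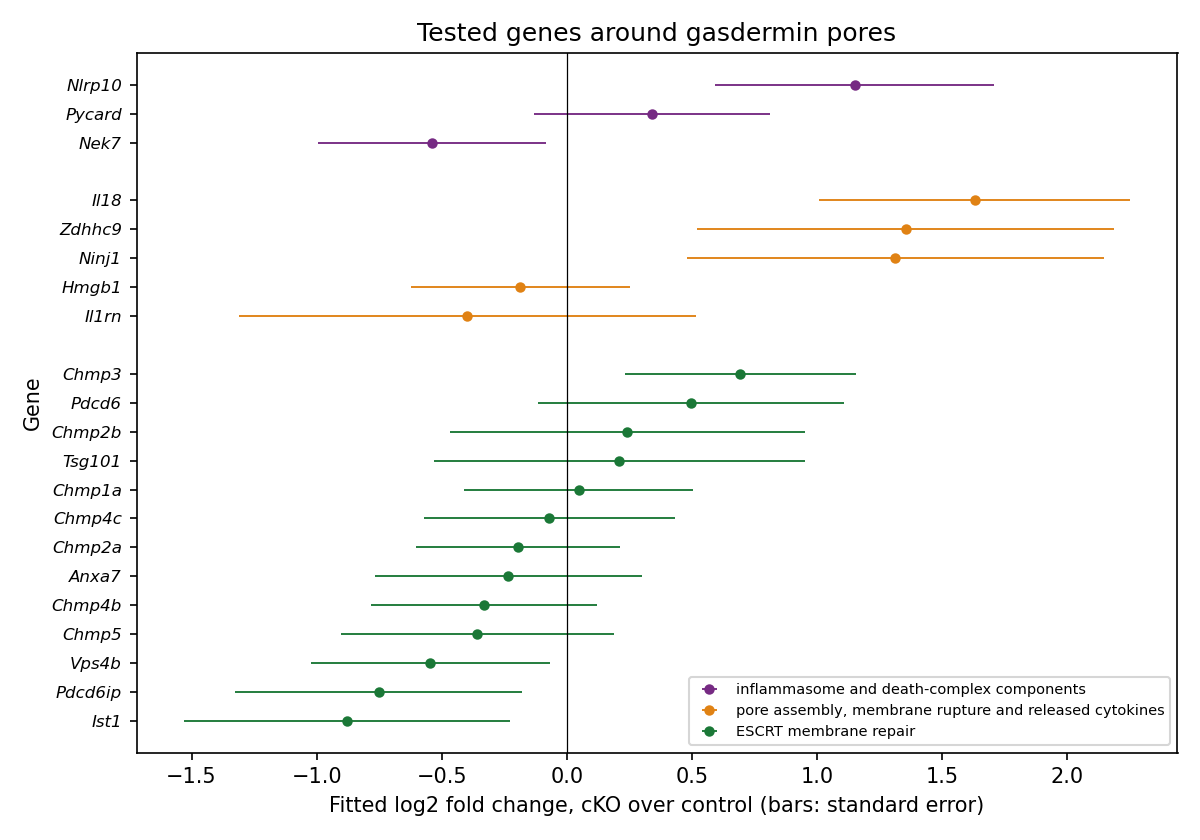
Fitted log2 fold change, cKO over control (horizontal axis), with its standard error for each tested gene (vertical axis) of the 3 lists with tested genes. None passed the threshold; Il18 has the highest value (1.63) and Ist1 the lowest (-0.88).

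None of the tested genes beside the gasdermins was called. Within 200000 bases of the 4 places, 12 genes were tested and 0 were called with edgeR, beside 0.848% of all tested genes. At that share, 0 calls in so short a list carry little weight. Of the 12, 0 had an unadjusted edgeR p under 0.05, and 0 were called with DESeq2 or limma-voom. Their median log2 fold change was -0.37, with 4 of 12 above 0. Next to the A cluster, Thra, a thyroid hormone receptor gene, was at -1.22, Ormdl3, a regulator of sphingolipid synthesis, at -0.87 and Erbb2, a growth factor receptor gene, at -0.83, while Gsdma itself was at 1.27 (edgeR adjusted p 0.625, 0.749, 0.775 and 0.454). Near Gsdmd, the polarity gene Scrib was at -1.34 (edgeR adjusted p 0.671). Near the C cluster Asap1 was the only gene tested, with 22 and 0 counts against 11 and 14. Cyrib, a listed gene between Gsdmc4 and Asap1, had 9 and 0 against 7 and 17 and was too low to test.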

How the data were processed

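The values are raw counts of reads per gene, deposited by the authors without normalisation in 1 table for all libraries. Exon positions and the exon length of each gene stand in other columns, per the file headers. The submitters' processing notes name Trim Galore 0.6.7, Trimmomatic 0.39, cutadapt 3.7, STAR 2.7.10a, featureCounts 2.0.1 and the build GRCm39. Collapsing of molecular identifiers, use of strand and treatment of multiply aligned reads are not given in the sources used here. Libraries were made with a QIAseq UPX 3′ kit, per the labels' protocols, and were grouped by title.

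All 4 libraries were fitted in edgeR 4.0.16 (R 4.3.3) with filterByExpr (minimum count 10, minimum total 15; 4243 genes), TMM, glmQLFit and glmQLFTest, genotype as the only term and Benjamini-Hochberg adjustment over all tested genes (threshold 0.05). Standard errors are the absolute log2 fold change over the square root of F. A second fit replaced the A and C genes by their sums. DESeq2 1.42.0 and limma-voom (limma 3.58.1) were alternatives. Copies were compared with Biopython 1.88 and blastn 2.17.0.

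All 9 gasdermins, Stim1, Stim2, Casp1, Casp4, Casp8, Pycard, Il1a, Il1b, Il18 and Ninj1 were always named, and 1 further gene of that rule is not reported here. From each list, called genes and the 4 largest absolute log2 fold changes at a mean of at least 10 CPM were named, and the 3 profiles nearest to Gsdmc and to Gsdma. Other genes were chosen after their values were seen. Members and lists were chosen with earlier results of these data known.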

Additional observations from a re-analysis of the deposited data

How the results depend on the processing

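The higher direction of Gsdma and the A sum held under every alternative, among them other scalings, filters, DESeq2 and each library left out. Gsdmc and the C sum had 0 counts in both control libraries, so no alternative could reverse their direction. Without cKO replicate 1 they gave no value. With all libraries fitted, Gsdma and the A sum stayed short of the threshold under every alternative. Gsdmc and the C sum then passed it in all but limma-voom (log2 fold changes 6.26 and 6.47, 0 gasdermins called). The called genes over the whole table, 28 higher and 8 lower, became 49 and 26 without a count filter, 12 and 3 with limma-voom, and 34 to 59 and 8 to 34 with 1 library left out. The lower genes became 15 with library totals and 15 with a filter at 10 CPM on the mean. Library totals alone moved the median of all genes to -0.24. With 1 library left out, 0 to 1 gasdermins and 0 to 1 genes of the pore and cytokine list were called, Pycard ranged from -0.31 to 0.69 and Il1rn from -2.19 to 0.12. The cause of these shifts was not tested.

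Nothing in the labels says that equal replicate numbers mark a shared source. With the replicate number as a block, 16 genes were higher and 1 lower, and the call of Gsdmc was kept (adjusted p 0.0193, edgeR). The deviations of same-numbered libraries had a weak negative correlation (-0.20 over 4243 genes). Replicate 1 was the deeper library in cKO and the shallower in control. The crossed block, chosen after seeing the data, gave 90 higher and 57 lower genes and 1 called gene of the pore and cytokine list.

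Depth limits most values: a control level of Gsdmc under 16.01 and 9.58 CPM could not be seen.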

Other observations

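Relatives of the family outside the 9 genes were also near 0. Pjvk, a gasdermin relative known from hearing, had 0 counts in every library. A non-coding gene named Gsdmcl2, on the plus strand of chromosome 15 between Gsdmc3 and Gsdmc4 (63752556 to 63762361), had 3 counts in cKO replicate 1 and 0 elsewhere. The rows named Gsdmcl1 and Gsdmcl-ps, and a second row named Gsdmcl2, were at 0.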
